A study of Mus musculus with 10 samples.

Results

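The genes described here are 10 transcription factors used to tell apart the paraxial, intermediate and lateral plate parts of the mesoderm: Meox1, Meox2, Tcf15, Pax3, Foxc1, Foxc2, Foxf1, Tcf21, Osr1 and Wt1. They were picked by symbol, and each matched 1 of the 38924 gene IDs counted in every library. Mesoderm leaving the primitive streak is sorted into territories along the axis from the midline to the side of the embryo. Paraxial mesoderm, next to the midline, forms the somites, and Meox1, Meox2, Tcf15 and Pax3 are active there, while Foxc1 and Foxc2 act in both paraxial and cardiovascular tissue. Lateral plate mesoderm forms the heart, the gut wall and the linings of the body cavities. Foxf1 marks its inner, splanchnic layer, Osr1 marks lateral and intermediate mesoderm, and Tcf21 and Wt1 mark the proepicardium and epicardium that later cover the heart.

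All libraries were bulk RNA-seq of cells sorted at day 5 of embryoid body differentiation from 1 mouse embryonic stem cell line, Foxa2-hCD4, which carries a truncated human CD4 at the Foxa2 locus, so that antibody to hCD4 picks out Foxa2-expressing cells. Cardiac cultures received Activin A at 8 ng/ml with BMP4 and VEGF, and their Kdr+ Pdgfra+ cells, called cardiac mesoderm (CM), were split by hCD4 into Foxa2+ CM (n = 3) and Foxa2- CM (n = 3). The same kind of culture gave the Flk1+ high group (n = 2), which the study calls haematopoietic mesoderm and sorted on high Kdr (Flk1). Endoderm (n = 2) was hCD4+ and lacked Kdr and Pdgfra, and it came from cultures given Activin A at 75 ng/ml without BMP4 or VEGF. All 4 groups carry the reporter allele, and hCD4 reports the activity of the Foxa2 locus, not Foxa2 protein. Nothing in the labels says that replicates came from separate cultures, so the p-values below measure only the spread between these samples, which may be technical.

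Each library held 10926284 to 17470126 counts on genes, and 3 counts, taken as the limit that a count of 0 allows, equalled 0.172 to 0.275 CPM, that is counts scaled to library size. That limit covers counting error only. The sorting genes followed the gates for the most part: mean Kdr was 381 CPM in Foxa2+ CM, 421 CPM in the Foxa2- CM group, 574 CPM in Flk1+ high and 8.10 CPM in endoderm. Foxa2 was 20.03, 16.03 and 3.50 CPM in the Foxa2+ CM libraries against 0.873 to 2.54 CPM in the Foxa2- CM group, so the library Foxa2+ CM 3 held the least Foxa2 of its group. Cdh5, which encodes VE-cadherin, was 13.6 CPM in Foxa2+ CM 3 and 43.4 CPM in library 3 of Foxa2- CM, against 1.98 to 7.81 CPM in the other 4 CM libraries and 158 and 275 CPM in Flk1+ high. The summed level of the 10 haemato-endothelial markers was 494 to 660 CPM in Foxa2+ CM and 385 to 641 CPM in the Foxa2- CM group, highest in library 3 of each. Within each CM group these markers were highest in library 3 except Etv2, which was lowest there in both groups (97.6 and 91.1 CPM), and Lmo2, which was lowest in Foxa2+ CM 3 (88.0 CPM). Of these 10 markers, 1 passed as higher in Foxa2+ CM and 0 as lower in edgeR (1 at an unadjusted p under 0.05). Lmo2 lay above in Foxa2+ CM without overlap (88.0 to 117 against 54.7 to 63.7 CPM). Pecam1 lay below without overlap (3.44 to 5.75 against 6.50 to 26.7 CPM). Pdgfra averaged 221 CPM in Foxa2+ CM, 286 CPM in the Foxa2- CM group, 60.8 CPM in endoderm and 29.1 CPM in Flk1+ high. The 9 endoderm markers summed to 208 to 213 CPM and 187 to 196 CPM in Foxa2+ and Foxa2- CM, and 1005 to 1198 CPM in endoderm. Of the 9, Sox17 and Trh passed as higher in Foxa2+ CM, and 0 passed as lower in edgeR (2 at an unadjusted p under 0.05), with Foxa1 (0.846 to 1.27 against 1.86 to 1.98 CPM) and Cxcr4 (79.2 to 90.6 against 96.2 to 117 CPM) below in Foxa2+ CM without overlap. The 10 neural and neural crest markers summed to 190 to 200 CPM in Foxa2+ CM and 237 to 257 CPM in the Foxa2- CM group, with Foxd3 at 0 in all CM libraries but Foxa2- CM 1, which had 1 count, and Sox2 and Msx1 lower in Foxa2+ CM. Msx1 made up most of each sum, at 130 to 151 CPM in Foxa2+ CM and 169 to 195 CPM in Foxa2- CM. Sox9 came next, at 39.0 to 48.7 CPM and 38.7 to 44.7 CPM. Of 7 pluripotency markers summed, Foxa2+ CM held 74.96 to 98.8 CPM and Foxa2- CM 122 to 216 CPM. Dppa3, a germ cell and pluripotency gene, had no count in any CM library, whereas Nanog fell in Foxa2+ CM (log2 fold change −2.41, edgeR, adjusted p = 0.00132). Nanog alone of the 6 tested passed. Pou5f1 (25.4 to 34.7 against 36.6 to 63.2 CPM) and Tdgf1 (27.7 to 44.6 against 51.8 to 108 CPM) also lay below in Foxa2+ CM without overlap. Esrrb lay the other way without overlap, at 4.24, 5.27 and 6.04 CPM in Foxa2+ CM and 1.61, 1.11 and 3.33 CPM in the Foxa2- CM group (log2 fold change 1.33, edgeR, adjusted p = 0.0843).

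Most of the 10 factors were scarce at day 5. Meox2 had no count in any of the 10 libraries, which allows levels of up to 0.172 to 0.275 CPM. Pax3, a regulator of dermomyotome and neural crest, had 1, 0 and 4 counts in Foxa2+ CM, 1, 0 and 4 counts in Foxa2- CM, 2 and 11 counts in endoderm, and 4 and 3 counts in Flk1+ high, and was too low to be tested. The other 8 factors were tested in all 6 comparisons between groups. The group means of Tcf15, Foxc1, Tcf21 and Osr1 reached at most 6.09 CPM, that of Foxc2 reached 12.8 CPM in Flk1+ high, and Foxf1, Meox1 and Wt1 were the most abundant in the CM groups.

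**Figure D1:**
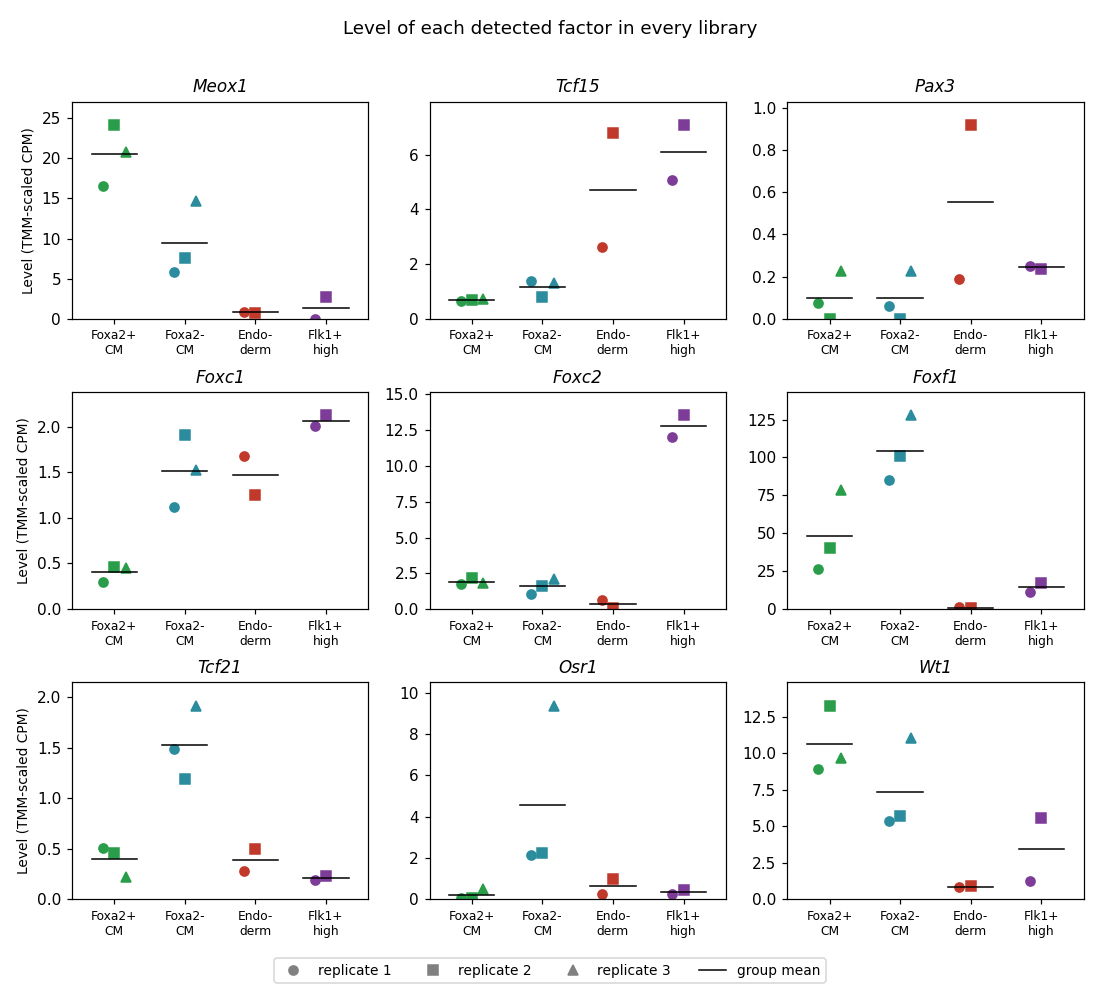
Level of the 9 factors with any count, 1 panel each, in TMM-scaled CPM (vertical axis, linear, its own range in each panel) for the 4 sorted groups (horizontal axis). Each point is 1 library, its shape gives the replicate, and lines mark group means. Foxf1 lies between 84.9 and 128 CPM in the Foxa2- CM group and at or under 1.02 CPM in endoderm, while Foxc2 is highest in both Flk1+ high libraries.

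Levels can be compared between genes only per length of transcript, as RPKM, which divides CPM by the exonic length in kilobases. On that scale Foxf1 was the most abundant of the 10 in both CM groups, with a mean of 43.3 RPKM in Foxa2- CM and 10.8 to 32.4 RPKM over the Foxa2+ CM libraries. Its mean in Foxa2- CM was above 94.5% of the 16026 genes that could be ranked, and its mean in Foxa2+ CM above 74.5% of them. Meox1 followed, with 9.22 RPKM in Foxa2+ CM and 4.21 RPKM in Foxa2- CM. In Flk1+ high the order was different, with Tcf15 at 6.21 RPKM, Foxf1 at 5.92 RPKM and Foxc2 at 4.70 RPKM. These neighbours were not separated by their spread, since their lowest and highest libraries interleaved (5.19 and 7.23 RPKM for Tcf15, 4.62 and 7.21 RPKM for Foxf1, 4.42 and 4.97 RPKM for Foxc2). In endoderm Tcf15 led with 4.79 RPKM, and no other factor exceeded 0.357 RPKM.

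The first question was whether the progenitors split by Foxa2 activity differ in these territorial factors. Of the 8 tested factors, 3 passed the test, all lower in Foxa2+ CM: Foxc1, Tcf21 and Osr1. None was called higher in edgeR, and 1 (Meox1) was higher at an unadjusted p under 0.05. The libraries of the 2 groups did not overlap for 6 of the 8 tested factors, with Meox1 above and Tcf15, Foxc1, Foxf1, Tcf21 and Osr1 below in Foxa2+ CM. Of all 15284 genes tested in this comparison, 6.48% passed (3.81% higher and 2.66% lower in Foxa2+ CM), and 24.0% did not overlap between the groups (13.6% above and 10.4% below). The threshold throughout was an adjusted p (Benjamini-Hochberg over all genes tested) under 0.05 in edgeR's quasi-likelihood test. In bulk samples, fewer cells of a type and less RNA per cell cannot be told apart.

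Among the paraxial factors, Meox1, a homeobox gene of the somites, was 16.6, 24.2 and 20.8 CPM in Foxa2+ CM libraries 1 to 3 and 5.88, 7.54 and 14.7 CPM in the Foxa2- CM group. Every Foxa2+ CM library lay above every Foxa2- CM library, and the highest Foxa2- CM value belonged to library 3. The log2 fold change was 1.119 (SE 0.33), which did not pass (edgeR, adjusted p = 0.0963). Without both CM libraries numbered 3, an alternative chosen after seeing the data, it was 1.64 and passed (edgeR, adjusted p = 1.5e-13). That smaller fit has 2 libraries a group and takes nearly all of its estimate of spread from the other genes, so its p-values are very small, and 17.4% of all genes passed in it (10.5% higher and 6.96% lower). Tcf15, a basic helix-loop-helix factor of the somites also known as paraxis, was 0.658, 0.694 and 0.733 CPM in Foxa2+ CM and 1.36, 0.794 and 1.30 CPM in the Foxa2- CM group. The groups were close without overlapping, and the log2 fold change of −0.74 (SE 0.29) did not pass (edgeR, adjusted p = 0.211).

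Of Foxc1 and Foxc2, the paired forkhead genes of somites and blood vessels, Foxc1 passed and Foxc2 did not. Foxc1 was 0.292, 0.463 and 0.451 CPM in Foxa2+ CM and 1.11, 1.91 and 1.52 CPM in the Foxa2- CM group, equal to 4 to 8 counts and 18 to 27 counts a library. No Foxa2+ CM library reached the lowest Foxa2- CM library, and Foxc1 fell by 1.86 on the log2 scale (SE 0.33, edgeR, adjusted p = 0.0176), a 3.62-fold difference. Foxc2 was 1.75, 2.14 and 1.80 CPM in Foxa2+ CM and 1.05, 1.59 and 2.09 CPM in the Foxa2- CM group. Its groups overlapped, and the log2 fold change was 0.27 (SE 0.29, edgeR, adjusted p = 0.755). The ratio of Foxc2 to Foxc1, taken per length within each library and chosen after the values were seen, was 12.9, 9.92 and 8.58 in Foxa2+ CM and 2.03, 1.79 and 2.94 in Foxa2- CM. As a description with no test, the ratio did not overlap between the CM groups, and that of Flk1+ high (12.9 and 13.7) was nearest to Foxa2+ CM.

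Foxf1, which is needed for the splanchnic mesoderm and its vessels, was the most abundant of the lateral plate factors. It was 26.2, 40.4 and 78.3 CPM in Foxa2+ CM and 84.9, 101 and 128 CPM in the Foxa2- CM group. The groups did not overlap, but Foxa2+ CM 3 nearly reached the lowest Foxa2- CM library. The log2 fold change of −1.11 (SE 0.35) did not pass (edgeR, adjusted p = 0.122). It was −1.45 without both libraries numbered 3 and −1.64 without Foxa2+ CM 3 alone, and it passed in both (edgeR, adjusted p = 9.4e-25 and 0.00758). With each library left out in turn it ranged from −1.64 to −0.82 and passed in 1 of 6 fits. Among all 12 alternative fits it passed in 4.

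Tcf21, a basic helix-loop-helix factor of the proepicardium and of organ mesenchyme, was 0.512, 0.463 and 0.226 CPM in Foxa2+ CM and 1.49, 1.19 and 1.92 CPM in the Foxa2- CM group. All 3 Foxa2+ CM libraries lay below the lowest Foxa2- CM library, with 4 to 8 counts against 15 to 34. Tcf21 fell by 1.96 on the log2 scale in Foxa2+ CM (SE 0.36, edgeR, adjusted p = 0.0201). Osr1, a zinc finger gene of lateral and intermediate mesoderm, was 0.0731, 0.0579 and 0.508 CPM in Foxa2+ CM (1, 1 and 9 counts) and 2.17, 2.22 and 9.37 CPM in the Foxa2- CM group (35, 28 and 166 counts). In each group library 3 held the most, and the groups did not overlap. Osr1 fell by 4.34 on the log2 scale (SE 0.89, edgeR, adjusted p = 0.0294), the largest difference among the 8 tested factors in this comparison. Its size depended on the libraries numbered 3, at −6.01 without Foxa2+ CM 3 and −3.23 without Foxa2- CM 3. Wt1, a zinc finger regulator of the epicardium and the urogenital ridge, was 8.92, 13.3 and 9.70 CPM in Foxa2+ CM and 5.39, 5.72 and 11.004 CPM in the Foxa2- CM group. The groups overlapped through Foxa2- CM 3, and the log2 fold change of 0.52 (SE 0.30) did not pass (edgeR, adjusted p = 0.440).

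**Figure D2:**
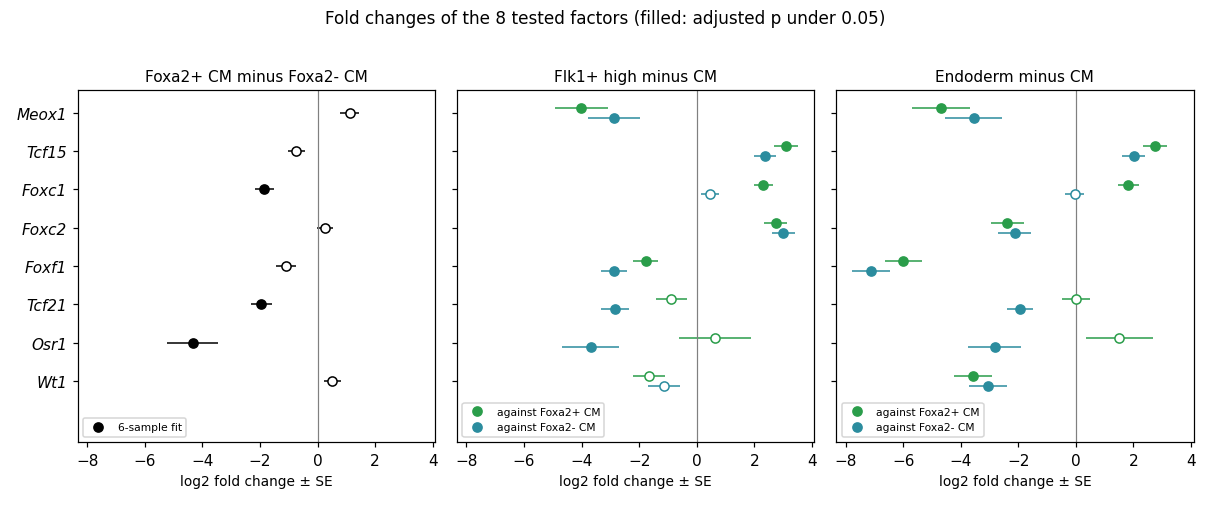
Log2 fold change (horizontal axis) of the 8 tested factors (rows) between the CM groups, in Flk1+ high against each CM group and in endoderm against each CM group. Bars span 1 SE to each side, and filled points passed at an adjusted p under 0.05. Between the CM groups only Foxc1, Tcf21 and Osr1 are filled, at −1.86, −1.96 and −4.34.

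The 3 calls changed with the libraries included. Leaving out Foxa2+ CM 1, Foxa2+ CM 2 or Foxa2- CM 2 left 0 factors past the threshold in edgeR, with 5, 4 and 6 of 8 at an unadjusted p under 0.05, while the log2 fold changes of Foxc1, Tcf21 and Osr1 stayed negative in all 12 alternative fits. The share of all genes passing without Foxa2+ CM 1, Foxa2+ CM 2 or Foxa2- CM 2 is not given here. The losses may therefore not be particular to these factors. Without both CM libraries numbered 3, 6 factors passed, in a fit where 17.4% of all genes did. They were Foxc1, Foxf1, Tcf21 and Osr1 lower and Meox1 and Wt1 (log2 fold change 1.02) higher. The summed haemato-endothelial markers were highest in the library numbered 3 of each CM group and the summed pluripotency markers lower in Foxa2+ CM, and their part in these differences was not tested.

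Foxf1 and Meox1 took opposite positions in the CM groups, so their ratio per length was also computed within each library, after their values had been seen and with no test. It was 1.45, 1.54 and 3.47 in Foxa2+ CM and 13.3, 12.3 and 8.01 in Foxa2- CM. Because neither gene overlapped between the CM groups and they lay in opposite directions, the ratio was bound to separate the groups. Library 3 of each group lay nearest to the other group. In endoderm the ratio was 1.13 and 0.615 on 6 to 11 counts of each gene, and in Flk1+ high it was 5.997 in library 2 and undefined in library 1, which had no Meox1 count.

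**Figure D3:**
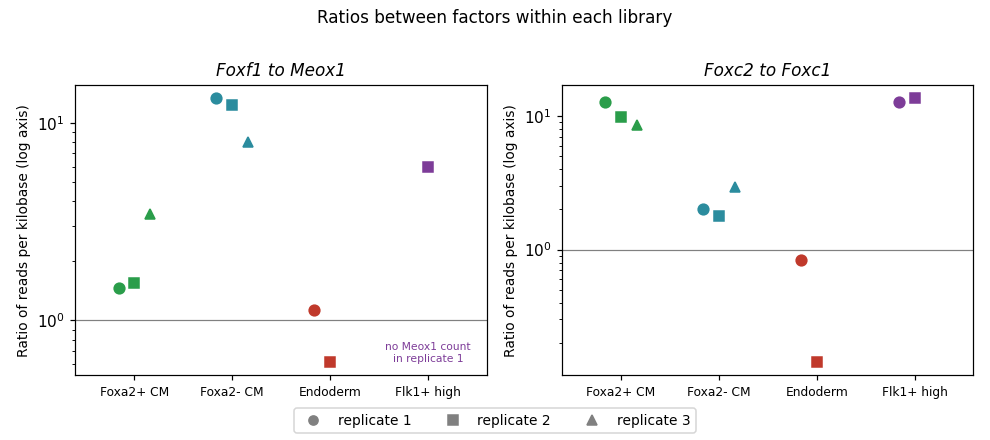
Ratios of reads per kilobase of Foxf1 to Meox1 and of Foxc2 to Foxc1 (vertical axes, log scale) in each library of the 4 groups. Points are libraries, the line marks a ratio of 1, and Flk1+ high 1 has no Foxf1 to Meox1 point. Foxf1 to Meox1 spans 1.45 to 3.47 in Foxa2+ CM and 8.01 to 13.3 in Foxa2- CM, and Foxc2 to Foxc1 spans 8.58 to 12.9 and 1.79 to 2.94.

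RefSeq promoter windows (GRCm38.p6) were matched for 3 of the 10 factors. Those of Foxc1 and Tcf21 are shown because both genes were lower in Foxa2+ CM, and each covers the 250 bases before the RefSeq transcription start, read 5′ to 3′ on the strand of the gene. Capitals mark every match to the motifs searched, on both strands. The forkhead letters searched were TGTTTAC, and in a separate search TGTTTGC. The GATA letters were AGATAA, and separately TGATAA, and the others were the E-box CANNTG, the box written CCAAT, and the TATA box, TATAAA.
Foxc1, chr13:31806396-31806645, plus strand: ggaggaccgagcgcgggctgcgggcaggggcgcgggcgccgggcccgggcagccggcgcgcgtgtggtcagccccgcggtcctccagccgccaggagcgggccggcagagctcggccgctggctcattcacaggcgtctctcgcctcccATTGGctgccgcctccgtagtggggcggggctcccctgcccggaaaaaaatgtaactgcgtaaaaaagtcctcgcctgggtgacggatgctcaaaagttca
Tcf21, chr10:22820144-22820393, minus strand: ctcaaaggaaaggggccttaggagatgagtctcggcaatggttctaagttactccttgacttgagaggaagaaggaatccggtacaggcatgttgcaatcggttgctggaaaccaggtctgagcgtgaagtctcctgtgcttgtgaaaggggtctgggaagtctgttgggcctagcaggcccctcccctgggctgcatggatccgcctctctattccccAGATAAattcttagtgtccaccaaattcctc
The Foxc1 window held 1 CCAAT match, on the opposite strand, and the Tcf21 window held 1 AGATAA match. In GENCODE M21 both genes start inside their windows, at 31806633 (Foxc1) and 22820174 (Tcf21). The AGATAA match lies within the Tcf21 gene so annotated. Of 32851 promoter windows of this length, 33.8% held CCAAT and 9.99% held AGATAA. Neither window held the forkhead letters, which 3.17% (TGTTTAC) and 4.30% (TGTTTGC) of windows held. The matches share no letters with each other, and they describe these windows alone.

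In mm10 (GENCODE M21), all 10 factors are protein-coding. Foxf1 (chr8:121084386-121088144, 2 exons) and Foxc2 (chr8:121116171-121118895, 1 exon) are neighbours on the plus strand. Foxf1 was highest in Foxa2- CM and Foxc2 in Flk1+ high. Foxc1 (chr13:31806633-31812476) also has 1 exon, and Meox1 (chr11:101877510-101894374, minus strand) has 3, Tcf21 (chr10:22817281-22820174, minus strand) 2, Osr1 (chr12:9570116-9581500) 4, Wt1 (chr2:105126529-105173616) 10 and Tcf15 (chr2:152143561-152149097) 2. The kit does not keep strand, and only Foxf1 shares exonic bases with another annotated gene, 98 bases (4.06%) with the antisense miRNA gene Gm27530.

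The second question was how the CM groups compare with the Flk1+ high cells. Against Foxa2+ CM, 3 factors rose in Flk1+ high (Tcf15, Foxc1 and Foxc2) and 2 fell (Meox1 and Foxf1), of 8 tested, while 22.8% of all 16180 genes tested passed (11.6% higher and 11.2% lower). Against Foxa2- CM, 2 rose (Tcf15 and Foxc2) and 4 fell (Meox1, Foxf1, Tcf21 and Osr1), while 21.6% of all genes passed (11.3% higher and 10.3% lower). Both comparisons use the same Flk1+ high libraries.

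Foxc2 was 12.05 and 13.5 CPM in Flk1+ high, above all other 8 libraries, of which the highest held 2.14 CPM. It rose by 2.74 on the log2 scale over Foxa2+ CM (SE 0.39, edgeR, adjusted p = 0.00138) and by 3.01 over Foxa2- CM (SE 0.39, edgeR, adjusted p = 0.00104). Tcf15 was 5.08 and 7.09 CPM in Flk1+ high, again above every CM library, with log2 fold changes of 3.11 (SE 0.42) over Foxa2+ CM and 2.37 (SE 0.40) over Foxa2- CM (edgeR, adjusted p = 0.00113 and 0.00323). Foxc1 was 2.01 and 2.13 CPM. It exceeded Foxa2+ CM by 2.32 on the log2 scale (SE 0.34, edgeR, adjusted p = 0.00161). Against Foxa2- CM the log2 fold change of 0.46 did not pass (SE 0.30, edgeR, adjusted p = 0.331).

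Foxf1 was 11.2 and 17.4 CPM in Flk1+ high and lay below all 6 CM libraries. Its log2 fold change was −1.77 against Foxa2+ CM (SE 0.43, edgeR, adjusted p = 0.0176) and −2.88 against Foxa2- CM (SE 0.45, edgeR, adjusted p = 0.00236), and the first did not pass without Flk1+ high 1 (−1.48, edgeR, adjusted p = 0.0898). Tcf21 was 0.188 and 0.236 CPM, 3 counts in each library, and Osr1 was 0.251 and 0.473 CPM. Both fell against Foxa2- CM, by 2.83 (SE 0.48) and 3.68 on the log2 scale (edgeR, adjusted p = 0.00348 and 0.0260), and both overlapped Foxa2+ CM. The Osr1 call was lost when Flk1+ high 1 or Flk1+ high 2 was left out (edgeR, adjusted p = 0.108 and 0.0820), and its size was −2.61 without Foxa2- CM 3.

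The Flk1+ high libraries disagreed on Meox1 and Wt1. Meox1 had no count in library 1 and 34 counts (2.68 CPM) in library 2, and Wt1 was 1.25 and 5.59 CPM. Meox1 fell against both CM groups (log2 fold change −4.01 and −2.88, edgeR, adjusted p = 0.0135 and 0.0487), and the call against Foxa2- CM was kept in 4 of 11 alternative fits. The size of the Meox1 difference was set by library 1: without Flk1+ high 1 it was −2.93 against Foxa2+ CM and −1.81 against Foxa2- CM. With library 1 alone, which has no Meox1 count, the fitted value depends on the prior count and is not given. Wt1 did not pass against either CM group (log2 fold change −1.66 and −1.13, edgeR, adjusted p = 0.0589 and 0.180).

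The third comparison set endoderm against the CM groups. Against Foxa2+ CM, 4 factors fell in endoderm (Meox1, Foxc2, Foxf1 and Wt1) and 2 rose (Tcf15 and Foxc1), while 35.0% of all 16180 genes tested passed (18.3% higher and 16.7% lower). Against Foxa2- CM, 6 fell (Meox1, Foxc2, Foxf1, Tcf21, Osr1 and Wt1) and 1 rose (Tcf15), while 30.1% of all genes passed (16.1% higher and 14.0% lower). Endoderm cultures also differed from CM cultures in their Activin A dose and in lacking BMP4 and VEGF, so culture conditions and cell type cannot be told apart.

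Foxf1 was 1.02 and 0.502 CPM in endoderm, 11 and 6 counts. It fell by 5.99 on the log2 scale against Foxa2+ CM (SE 0.65, edgeR, adjusted p = 0.000151) and by 7.10 against Foxa2- CM (SE 0.66, edgeR, adjusted p = 6.8e-05), the largest differences of any of the 8 tested factors in any comparison; without Endoderm 1 they were −6.61 and −7.71. Meox1 was 0.839 and 0.753 CPM in endoderm, 9 counts in each library, and its log2 fold changes were −4.68 (SE 1.00) and −3.55 (SE 0.99) (edgeR, adjusted p = 0.00584 and 0.0232). Neither Meox1 call was kept without Endoderm 1 or without Endoderm 2. Wt1 was 0.839 and 0.920 CPM, with log2 fold changes of −3.58 and −3.06 (edgeR, adjusted p = 0.00281 and 0.00727), the second of which was lost when either endoderm library was left out. All of these endoderm libraries lay below every CM library.

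Tcf15 ran against this direction. It was 2.61 and 6.78 CPM in endoderm, above all 6 CM libraries, and the log2 fold changes were 2.74 (SE 0.42) over Foxa2+ CM and 2.01 (SE 0.40) over Foxa2- CM (edgeR, adjusted p = 0.00103 and 0.00515). Without Endoderm 2 these were 1.87 and 1.14, and the second did not pass (edgeR, adjusted p = 0.0720). Tcf15 was therefore lowest in the CM groups, and between endoderm and Flk1+ high its libraries overlapped. Foxc1 in endoderm, 1.68 and 1.25 CPM, exceeded Foxa2+ CM by 1.82 on the log2 scale (SE 0.36, edgeR, adjusted p = 0.00400) and overlapped Foxa2- CM. Foxa2+ CM thus had the least Foxc1 of the 4 groups, below all 7 other libraries.

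Tcf21 was 0.280 and 0.502 CPM and Osr1 0.280 and 1.00 CPM in endoderm. Both fell against Foxa2- CM, by 1.94 and 2.81 on the log2 scale (edgeR, adjusted p = 0.0102 and 0.0449), and both overlapped Foxa2+ CM. Foxc2 was 0.652 and 0.0837 CPM, 7 counts and 1 count, and its log2 fold changes were −2.39 and −2.12 (edgeR, adjusted p = 0.0100 and 0.0216). Without Endoderm 1 the Foxc2 values were −4.41 and −4.14, and without Endoderm 2 they were −1.56 and −1.28 and did not pass (edgeR, adjusted p = 0.0543 and 0.116), nor did the second without Foxa2- CM 3 (−1.85, edgeR, adjusted p = 0.0536). Osr1 against Foxa2- CM was −2.24 without Endoderm 1, −4.04 without Endoderm 2 and −1.73 without Foxa2- CM 3, and passed in none of these (edgeR, adjusted p = 0.236, 0.0938 and 0.108). Tcf21 against Foxa2- CM was −1.63 without Endoderm 1 and did not pass (edgeR, adjusted p = 0.0880). Fits without Endoderm 1 or Endoderm 2 rest on 1 endoderm library. The share of all genes passing in them is not given here, so calls lost there may not be particular to these factors. Between endoderm and Flk1+ high, Foxc2 and Foxf1 fell in endoderm (log2 fold change −5.13 and −4.23, edgeR, adjusted p = 0.000177 and 0.00163; −7.13 and −4.81 without Endoderm 1) and 0 factors rose, in edgeR and also at an unadjusted p under 0.05, while 32.6% of all genes passed (16.4% higher and 16.2% lower).

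Other genes of the same territories were read from lists of paraxial, lateral plate, intermediate and epicardial genes. Of 19 paraxial and somite genes, 10 were expressed enough to be tested between the CM groups, and 4 fell and 0 rose in Foxa2+ CM in edgeR (5 and 1 at an unadjusted p under 0.05). The list's median log2 fold change was −0.89, against −0.0014 over all 15284 genes tested. Mesp2, which sets somite boundaries, averaged 0.384 CPM in Foxa2+ CM and 2.06 CPM in the Foxa2- CM group (log2 fold change −2.37). The Notch ligand Dll1 averaged 1.07 and 4.05 CPM (−1.90), its relative Dll3 5.48 and 20.5 CPM (−1.89), and Tbx6, a T-box regulator of presomitic mesoderm, 6.61 and 14.7 CPM (−1.14; edgeR, adjusted p = 0.0119, 0.00498, 0.0372 and 0.0354 in this order). Meox1, also paraxial, lay above in the same Foxa2+ CM libraries.

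Of 16 lateral plate genes 15 were tested, and 2 rose and 4 fell in Foxa2+ CM, with a median log2 fold change of −0.02. Hoxb6, Isl1 and Hand1 were among those that fell and Tbx5 among those that rose. Foxf2, named after its values were seen as the close relative of Foxf1, also rose, at a mean of 9.25 CPM in Foxa2+ CM and 3.99 CPM in the Foxa2- CM group. Tbx4, a T-box gene of the hindlimb and allantois, averaged 0.312 and 3.57 CPM and fell by 3.52 on the log2 scale (edgeR, adjusted p = 0.0114), second to Osr1 in size among the genes of these lists that passed between the CM groups. Of 11 intermediate mesoderm genes, 8 were tested, and Gata3 alone passed (70.2 and 48.1 CPM, log2 fold change 0.55, edgeR, adjusted p = 0.0260). At an unadjusted p under 0.05, 2 were higher and 2 lower, and 4 of the 8 did not overlap, against 24.0% of all genes. Among these, Lhx1 lay below in Foxa2+ CM (18.8 to 49.1 against 49.4 to 158 CPM) and Pax2 above (14.5 to 33.9 against 4.33 to 11.1 CPM). Of 12 epicardial genes with a symbol in the annotation, 8 were tested: Bnc1 rose (log2 fold change 0.73), whereas Aldh1a2, which makes retinoic acid, and Lrrn4 fell (−2.02 and −0.51, edgeR, adjusted p = 0.0143, 0.0227 and 0.00598). Without both libraries numbered 3, the counts higher and lower were 1 and 5 of 9 paraxial genes tested, 3 and 6 of 15 lateral plate genes, 2 and 1 of 8 intermediate mesoderm genes, and 3 and 2 of 8 epicardial genes. Of all genes tested, 10.5% were higher and 6.96% lower in that fit, and 3.81% and 2.66% in the main fit. Tbx18 and Upk1b, further epicardial genes, were too low to test, and so were Myf5, Myod1, Pax1 and Pax9 among somite genes.

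**Figure D4:**
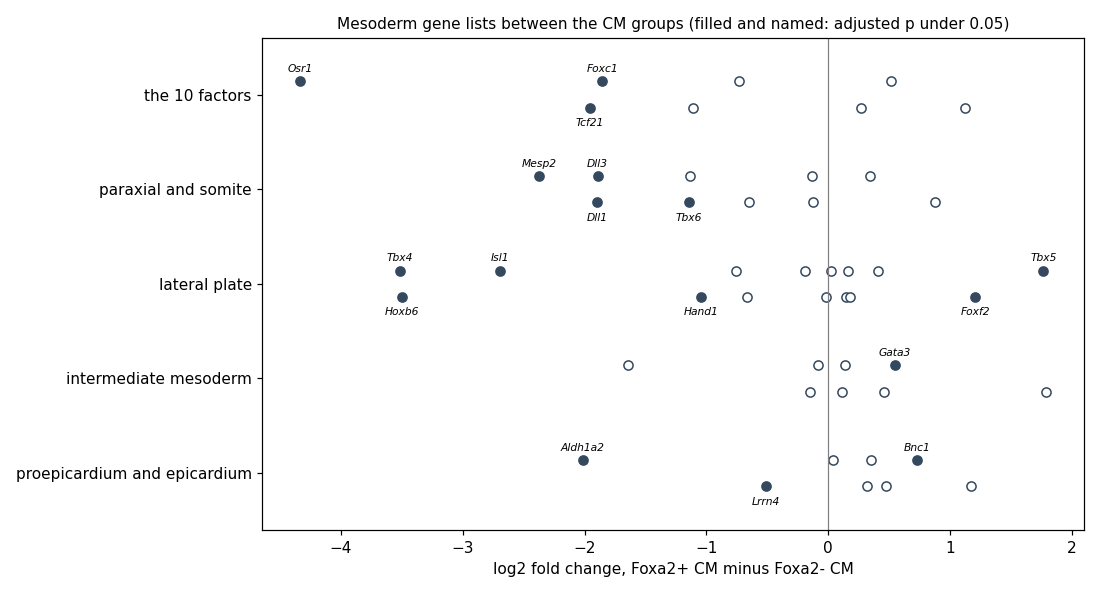
Log2 fold change of Foxa2+ CM over Foxa2- CM (horizontal axis) for each tested gene of the 10 factors and of 4 mesoderm lists (rows); points are genes, staggered in height only for legibility, and filled, named points passed at an adjusted p under 0.05. All filled paraxial genes lie below 0, while lateral plate and epicardial genes lie on both sides.

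Against the other groups the same lists split further. In Flk1+ high, 0 lateral plate genes rose and 5 and 8 of 15 fell against Foxa2+ CM and Foxa2- CM, led by Foxf2 (−3.28) and Tbx4 (−4.30) on the log2 scale, and the summed level of that list was 325 and 627 CPM in the Flk1+ high libraries against 916 to 1118 CPM in CM. In endoderm, 0 rose and 8 and 11 fell, with Hand2 averaging 0.0932 CPM against 29.6 and 50.1 CPM. These counts of 0 in edgeR were also 0 at an unadjusted p under 0.05. Of all genes tested, 11.6% rose and 11.2% fell in Flk1+ high against Foxa2+ CM, and 11.3% and 10.3% against Foxa2- CM. In endoderm these shares were 18.3% and 16.7%, and 16.1% and 14.0%. Of 12 paraxial genes tested in endoderm, 7 rose and 2 fell against Foxa2+ CM (median log2 fold change 2.17), and 3 rose and 3 fell against Foxa2- CM (median 0.41). Those that rose against Foxa2+ CM included Pax7 at 18.1 CPM against 0.640 CPM, Dll1, Dll3 and Mesp2, of which Pax7 is also active in the neural tube. Intermediate mesoderm genes split evenly in endoderm, with 4 of 9 higher and 4 lower against each CM group, while in Flk1+ high 1 rose (Emx2) and 5 fell against each, among them Pax2. The Flk1+ high libraries disagreed on Emx2 (31 counts or 1.95 CPM, and 124 counts or 9.77 CPM), though both lay above its highest CM library (0.508 CPM). Of 8 epicardial genes, 1 rose and 3 fell in endoderm against Foxa2+ CM and 1 rose and 4 fell against Foxa2- CM, and in Flk1+ high 1 rose and 4 fell, and 0 rose (also 0 unadjusted) and 3 fell. Bnc1 averaged 30.9 CPM in Foxa2+ CM and fell in both other groups, to 1.22 CPM in endoderm and 4.46 CPM in Flk1+ high, whose libraries disagreed (3 counts or 0.188 CPM, and 111 counts or 8.74 CPM).

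Over all 10 libraries, the genes nearest in pattern to each factor with a mean of at least 50 counts were found among 12201 candidates by the root mean square difference of centred log2(CPM + 1). For Meox1 they were Btnl10 (0.39) and Pax2 (0.42), a gene of the intermediate mesoderm. Pax2 was 14.5, 21.2 and 33.9 CPM in Foxa2+ CM, 4.33, 4.52 and 11.1 CPM in the Foxa2- CM group, and at or under 1.10 CPM elsewhere. For Foxf1 they were Wnt5a (0.35), a secreted signal, and Hand2 (0.36), a heart and limb factor. Wnt5a was 101 to 180 CPM in Foxa2+ CM, 225 to 264 CPM in the Foxa2- CM group, 48.0 and 56.4 CPM in Flk1+ high and 4.68 and 5.87 CPM in endoderm. For Foxc2 they were Cd38 (0.28) and Egfl7 (0.29), the second an endothelial gene, and for Wt1 Frmd6 (0.28) and Lipg (0.29). The points share libraries and depth, and these values describe likeness over 10 libraries alone.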

How the data were processed

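The deposited files hold raw counts per gene in 10 libraries of mouse cells. Per the study's methods and the submitters' processing notes, the authors aligned single-end reads of 50 nt to mm10 with STAR 2.5.0a, removed duplicates with Picard and counted reads on genes with HTSeq 0.6.0, so counts of abundant genes may be lowered by the duplicate removal. The library kit does not keep strand, and the strand option of the counting is not given in the sources used here. GENCODE M21 symbols matched 37607 of 38924 IDs, and summary rows of HTSeq, which name no gene, were left out; of uniquely aligned reads, 72.2% to 80.5% fell on genes.

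Counts were filtered with filterByExpr, scaled with TMM and tested with edgeR 4.0.16 (quasi-likelihood, Benjamini-Hochberg) in R 4.3.3. The Foxa2+ CM against Foxa2- CM comparison used the 6 CM samples, and the other 5 comparisons used 1 model of all 10 samples. CPM is scaled by TMM, and RPKM divides it by exonic length. The code was tested on simulated counts. Replicates of every group differed by more than counting noise (chi-square per degree of freedom 3.72 to 21.5). The alternatives were DESeq2 1.42.0, median-ratio size factors, no count filter, other sample sets, a replicate block, each library left out in turn and, added after seeing the data, both CM libraries numbered 3 left out.

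All 10 factors were named. From each mesoderm list the genes eligible to be named were the 4 called genes with the largest fold change in a comparison, and the nearest 2 genes in pattern were named for each factor with a mean of at least 50 counts. The factors, lists and tests were chosen with earlier results of these data known.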

Additional observations from a re-analysis of the deposited data

How the results depend on the processing

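Between the CM groups, 3 of 8 factors passed in edgeR, as did 6.48% of all genes tested. Without both CM libraries numbered 3, chosen after seeing the data, 6 factors and 17.4% of all genes passed. With no low count filter the count of factors was 5. With each library left out in turn it ranged from 0 to 5: 0 without Foxa2+ CM 1, Foxa2+ CM 2 or Foxa2- CM 2 (5, 4 and 6 at an unadjusted p under 0.05), and 5 without Foxa2- CM 3. The shares of all genes passing in the fits with no filter or with 1 library left out are not given here. For endoderm against Foxa2- CM the count of 7 was lower without Endoderm 1 or Endoderm 2. Those fits rest on 1 endoderm library, so the loss may not be particular to these factors. In the other 4 comparisons the count of factors called stayed within 1.5 times the main count in every alternative run. Where a fit left out a library of a group with 2, the lone library was assumed to vary like the other groups.

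The replicate numbers 1 to 3 of the CM groups gave correlations of 0.480, 0.0855 and 0.580 between same-numbered samples, so number 2 gave no sign of pairing, and Foxa2+ CM 2 correlated more with Foxa2- CM 1 (0.0974); the samples share only a number. With the replicate number as a block, 5 factors passed between the CM groups, where 16.7% of all genes did.

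Signs turned only for differences that had not passed. Foxc1 in endoderm against Foxa2- CM (−0.04 on the log2 scale) was 0.010 with the replicate block, 0.15 without Endoderm 2 and 0.11 without Foxa2- CM 2 (leave-one-out range −0.29 to 0.15). Tcf21 in endoderm against Foxa2+ CM (0.0051) was −0.32 without both CM libraries numbered 3, −0.015 with DESeq2, −0.0023 with median-ratio size factors, −0.036 with no filter, −0.50 without Endoderm 2 and −0.29 without Foxa2+ CM 3 (leave-one-out range −0.50 to 0.31). For endoderm against Flk1+ high, Osr1 (0.87) was −0.33 without Endoderm 2 (range −0.33 to 1.47), Tcf15 (−0.36) was 0.14 without Endoderm 1 (range −1.22 to 0.14), and Meox1 (−0.67) was 6.56 without Flk1+ high 2 (range −1.75 to 6.56), which leaves a library with no Meox1 count, so that this value depends on the prior count. The cause of the other changes was not tested. Depth limits every factor called between the CM groups, with as few as 4 (Foxc1), 4 (Tcf21) and 1 (Osr1) counts in a CM library, and also Foxc2 in endoderm (1 count), Meox1 in Flk1+ high (0 counts in library 1), Pax3 and Meox2.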
